A study of Homo sapiens with 6 samples.

Results

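The vacuolar H+-ATPase (V-ATPase) is the proton pump of lysosomes and endosomes, and 10 of its subunit and accessory genes are described here. They were chosen by gene symbol (ATP6V1A, ATP6V1B2, ATP6V1C1, ATP6V1D, ATP6V1H, ATP6V0A1, ATP6V0B, ATP6V0D1, ATP6AP1 and ATP6AP2), and all 10 were found among the 23710 symbols of the count table and passed the filter on low counts. The mRNA was measured by RNA sequencing in THP-1, a monocytic line established from a human leukaemia, kept for 6 h with 10 uM mebendazole, a benzimidazole anthelmintic that binds tubulin, or with its vehicle DMSO. There were 3 libraries per group, labelled as 3 pairs, and no genotype or other agent differed between them. The labels do not say whether the libraries came from separate cultures, so p-values cover only how far these libraries differ from each other, which may be technical variation.

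The V-ATPase couples ATP hydrolysis to proton transport by rotation. Its V1 sector, in the cytosol, binds and splits ATP, and its V0 sector, in the membrane, carries protons into the lumen. The pump is regulated in part by the reversible docking of V1 onto V0. In monocytes and macrophages it acidifies lysosomes and phagosomes, where acid hydrolases degrade what the cell has taken up, and its subunit genes are known targets of the transcription factor TFEB and its relatives, which bind DNA at E-boxes of the sequence CACGTG.

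Promoter sequence from RefSeq (GRCh38.p14, 250 bases before to 50 after the gene's start) was at hand for 6 of the 10 members. Those of ATP6V0B and ATP6V0D1 held CACGTG, which reads the same on both strands, and those of ATP6V1D, ATP6V0A1, ATP6AP1 and ATP6AP2 did not hold these letters. In all 4 windows printed below the E-box stands after a T, and the longer motif TCACGTG, searched on both strands and overlapping the shorter one, was in the same promoters. CACGTG was in 7.26% and TCACGTG in 3.71% of the 35116 promoters of this length. The windows below show the E-box in capitals with 20 bases on either side, 5′ to 3′ on the gene's strand. They cover these members and 2 of the 12 other subunit genes with a promoter sequence, those whose promoter held CACGTG. Other subunit genes with several promoters counted if any held it, while the shares above are per promoter. ATP6V0B (chr1:43974883-43974946, plus strand) has 2 copies, which begin 57 and 39 bases before the start. In ATP6V0D1 (chr16:67481191-67481236, minus strand) and ATP6V1G1 (chr9:114587691-114587736, plus strand) it begins 59 and 58 bases before the start. ATP6V0E2 (chr7:149872876-149872921, plus strand) has 3 listed starts, and in the first whose promoter holds the E-box it begins 72 bases before the start.
ATP6V0B: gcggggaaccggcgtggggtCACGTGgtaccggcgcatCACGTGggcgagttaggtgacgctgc
ATP6V0D1: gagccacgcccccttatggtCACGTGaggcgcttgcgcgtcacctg
ATP6V1G1: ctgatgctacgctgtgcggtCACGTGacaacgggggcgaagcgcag
ATP6V0E2: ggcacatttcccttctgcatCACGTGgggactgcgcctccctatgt

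Library totals ran from 13420558 to 15727667 reads. Counts were scaled with TMM factors to a common library size (CPM). Each level is a share of that library's RNA, and fewer cells of a type cannot be told apart from less RNA per cell. A gene was called when its p in edgeR's quasi-likelihood test, with the pair as a term, was under 0.05 after Benjamini-Hochberg adjustment over all genes. The standard error (SE) given with a log2 fold change is that of the 3 within-pair log2 ratios, not of the fitted value. These ratios were taken on log2 CPM with a prior count of 2, which pulls those of scarce genes toward 0. With TMM the median gene had a log2 fold change of -0.03, and with plain library totals -0.27, so small rises depend on this choice. Monocyte markers were present in every library, with a summed level of 4126 to 4327 CPM with mebendazole and 4529 to 4849 CPM in DMSO, and of the 12 tested 3 were called higher and 8 lower. The 8 lymphocyte markers summed to 28.6 to 29.1 CPM with mebendazole and 15.0 to 16.7 CPM in DMSO. Both of those that passed the filter were called higher. Of these, GNLY passed only through the mebendazole libraries (104 reads, against 20 in DMSO), so it could not be called lower. The defining CD3D, CD3E and CD3G had 0 reads with mebendazole and 5, 1 and 2 reads in DMSO. Over all genes tested, 40.6% were called higher and 41.7% lower. The part of these markers in the V-ATPase values was not tested.

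All 10 members were called higher with mebendazole, where 82.3% of the 13591 genes tested were called, 40.6% higher and 41.7% lower. Their log2 fold changes ran from 0.27 to 1.16 with a median of 0.57. With library totals 7 of the 10 were called higher and 0 lower, beside 30.8% higher and 53.9% lower over all genes, and ATP6V1A, ATP6V1B2 and ATP6V0A1 no longer passed. Together the members took 0.232%, 0.229% and 0.234% of all reads in the 3 mebendazole libraries, against 0.188%, 0.186% and 0.185% in the 3 DMSO libraries. The mebendazole range lay above the DMSO range for all 10 members, and for 40.5% of all genes tested, with 41.9% of them below it. In a test against a 1.5-fold change, which asks for a larger effect, 4 members passed (ATP6V1H, ATP6V1C1, ATP6V0B and ATP6AP1), beside 21.3% of all genes higher and 21.2% lower.

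**Figure D1:**
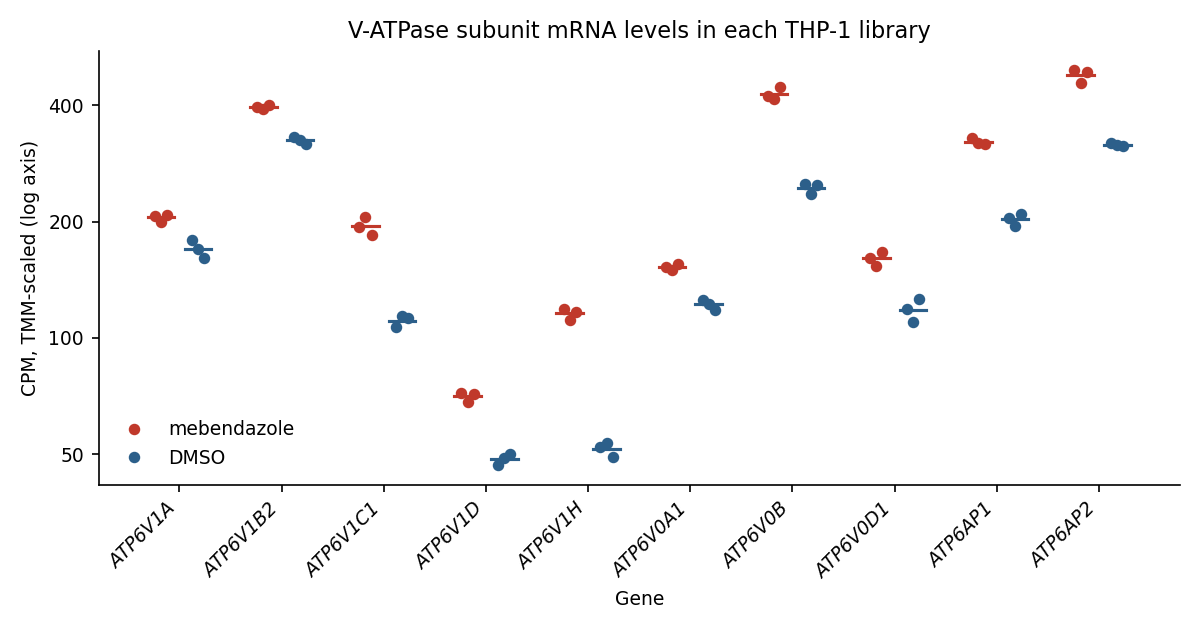
TMM-scaled CPM (log axis) of the 10 members in each library, mebendazole in red and DMSO in blue, with bars at the group means. The groups do not overlap for any of the 10 genes; the distance between them is smallest for ATP6V1A and ATP6V1B2 and largest for ATP6V1H.

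The V1 sector showed both the smallest and the largest rise among the members. ATP6V1H, a regulatory subunit that silences ATP hydrolysis in V1 when it is detached from V0, had 119, 111 and 117 CPM with mebendazole, against 52.3, 53.6 and 49.3 CPM in DMSO. That is a 2.24-fold rise (log2 fold change 1.16, SE 0.058, edgeR adjusted p = 6.4e-33, with 3 libraries per group), higher in 3 of 3 pairs and above 86.6% of all genes tested. The 3 libraries of each group lay close together, and the groups were far apart. ATP6V1C1, whose product clamps V1 to V0 and leaves the complex when the sectors part, had 194, 206 and 185 CPM with mebendazole, against 107, 114 and 112 CPM in DMSO (log2 fold change 0.81, SE 0.048, adjusted p = 8.9e-29, edgeR). ATP6V1D, part of the central rotor stalk, had 72.0, 68.3 and 71.8 CPM with mebendazole, against 46.9, 48.7 and 50.1 CPM in DMSO (log2 fold change 0.54, SE 0.040, adjusted p = 3.5e-15, edgeR). Its exons overlap those of EIF2S1 on the other strand in the GENCODE 29 annotation, and without strand their reads cannot be told apart. EIF2S1 itself averaged 141 ± 3.22 CPM with mebendazole and 151 ± 1.43 CPM in DMSO (SD, n = 3 each). Exons of ATP6V1A, ATP6V1C1 and ATP6V0B, and of the scarcer ATP6V0A2 and ATP6V0D2, overlap genes on the other strand that GENCODE 29 names only by clone, with the same limit.

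Of the members, those of the ATP-splitting ring rose least. ATP6V1A, the catalytic subunit, had 207, 200 and 209 CPM with mebendazole, against 179, 170 and 161 CPM in DMSO. Its log2 fold change was 0.27 (SE 0.050, adjusted p = 1.3e-09, edgeR), and 0.03 with library totals (adjusted p = 0.484). ATP6V1B2, which forms the ring with it and carries the non-catalytic nucleotide sites, had 397, 391 and 401 CPM with mebendazole, against 332, 325 and 317 CPM in DMSO (log2 fold change 0.29, SE 0.024, adjusted p = 3.3e-12, edgeR). With library totals the log2 fold change of ATP6V1B2 was 0.04 (adjusted p = 0.202). The calls of both ring members were thus lost with library totals, while ATP6V1C1, ATP6V1D and ATP6V1H were called under each scaling tried.

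Among the V0 genes that are members, ATP6V0B, which encodes the c″ proteolipid of the rotor ring, rose most. It had 422, 416 and 445 CPM with mebendazole, against 250, 236 and 249 CPM in DMSO (log2 fold change 0.80, SE 0.025, adjusted p = 1.7e-32, edgeR). ATP6V0D1, which joins the proteolipid ring to the central stalk, had 161, 154 and 166 CPM with mebendazole, against 119, 110 and 126 CPM in DMSO (log2 fold change 0.44, SE 0.023, adjusted p = 3.3e-16, edgeR). These are the members whose promoters held the E-box shown above. Of the 6 members with a promoter sequence, ATP6V0B had the largest log2 fold change and ATP6V0D1 the second smallest. ATP6V0A1, one form of the stator subunit a that lines the proton path, had 152, 150 and 155 CPM with mebendazole, against 126, 123 and 118 CPM in DMSO (log2 fold change 0.32, SE 0.037, adjusted p = 7.0e-11, edgeR). With library totals ATP6V0A1 had a log2 fold change of 0.08 (adjusted p = 0.0748).

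The accessory proteins help the pump to assemble. ATP6AP1, the glycoprotein also called Ac45, had 329, 321 and 318 CPM with mebendazole, against 205, 195 and 210 CPM in DMSO (log2 fold change 0.67, SE 0.035, adjusted p = 2.7e-27, edgeR). ATP6AP2, also known as the prorenin receptor, had 493, 456 and 488 CPM with mebendazole, against 320, 315 and 314 CPM in DMSO (log2 fold change 0.60, SE 0.032, adjusted p = 4.0e-26, edgeR). ATP6AP2 had the highest mean level of the 10 members per kb of exon in both groups. On the CPM scale it was highest with mebendazole, while in DMSO ATP6V1B2 averaged 325 CPM and ATP6AP2 316 CPM, and their libraries overlapped.

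**Figure D2:**
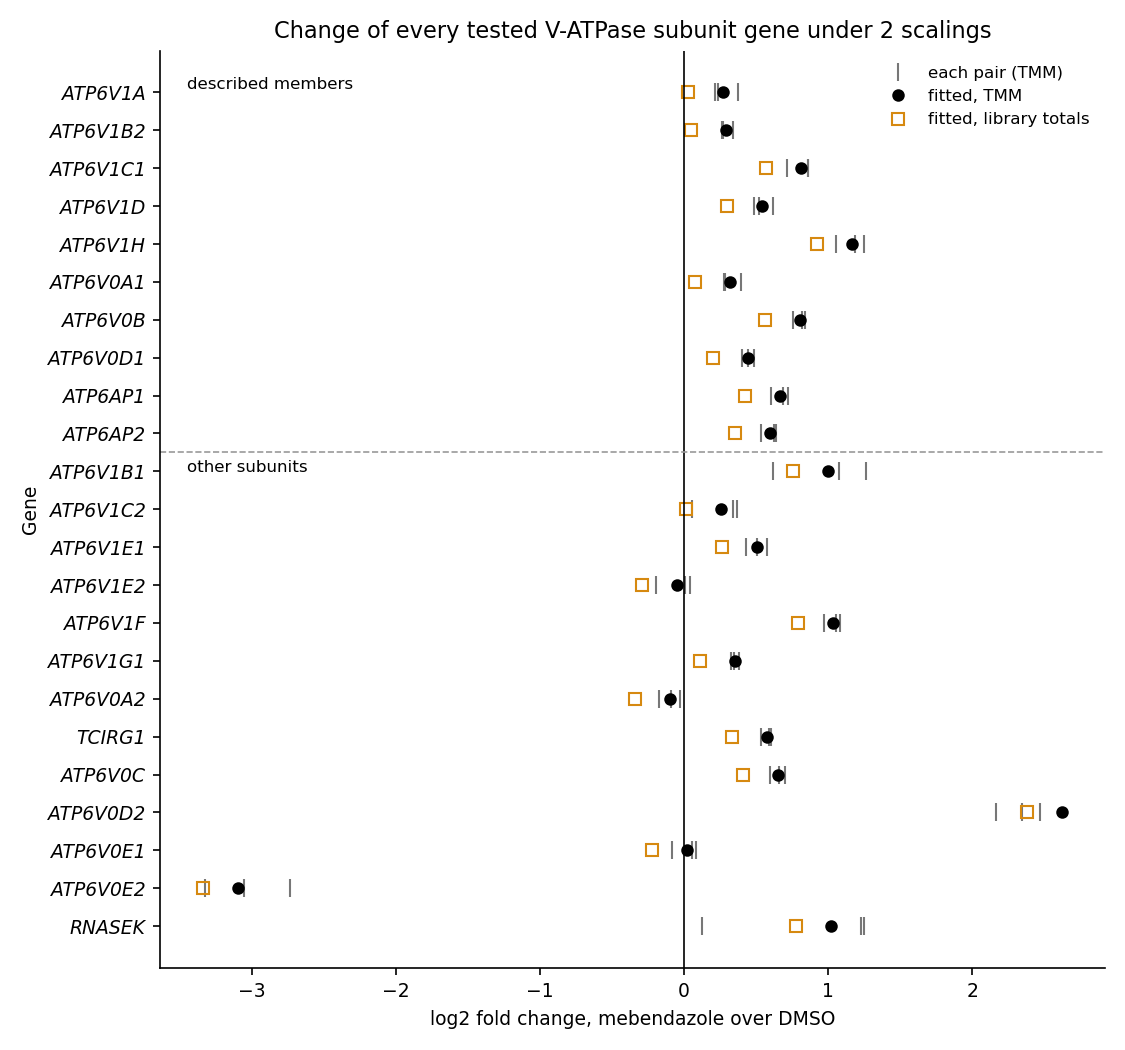
Log2 fold change (mebendazole over DMSO) of the 23 tested subunit genes, the 10 members above the dashed line. Black dots are fitted with TMM, open squares with library totals, and ticks are the 3 pairs on log2 CPM with a prior count of 2, which pulls the ticks of scarce genes toward 0; all squares lie left of their dots, and ATP6V1A, ATP6V1B2 and ATP6V0A1 come close to 0.

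**Figure D3:**
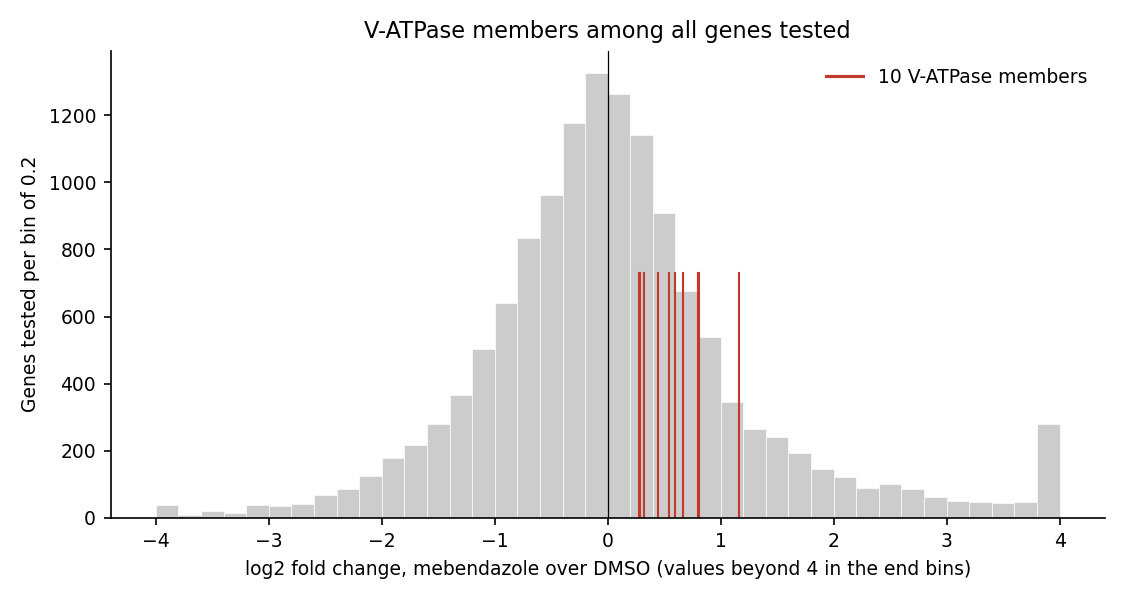
Number of genes tested per log2 fold change bin of 0.2 (mebendazole over DMSO), with the 10 members as red lines. The members lie between 0.27 and 1.16, inside the bulk of the distribution and to the right of its centre.

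The members rose by unequal amounts, so most of their shares differed between the groups, and shares within a library do not depend on the scaling between libraries. ATP6V1H made up 4.67%, 4.49% and 4.58% of the members' summed reads with mebendazole, against 3.01%, 3.17% and 2.89% in DMSO. ATP6V0B made up 16.9 ± 0.433% with mebendazole and 14.3 ± 0.337% in DMSO (SD, n = 3 each). ATP6V1A made up 8.13 ± 0.036% with mebendazole and 9.94 ± 0.454% in DMSO, and ATP6V1B2 15.7 ± 0.113% with mebendazole and 19.0 ± 0.334% in DMSO. The shares of ATP6V1C1 and ATP6AP1 also lay above the DMSO range, and those of ATP6V0A1 and ATP6V0D1 below it. Those of ATP6V1D and ATP6AP2 overlapped between the groups. All 10 shares are parts of the same whole, so they are not independent. For all genes tested, CPM ranges, a different measure, did not overlap for 40.5% with mebendazole above and 41.9% with it below.

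Levels per length were compared as CPM per kb of exon, with exon lengths from GENCODE 29, which is not the annotation the reads were counted on. With mebendazole the order of these levels was ATP6AP2 (205), ATP6V0B (187), ATP6V1B2 (138), ATP6AP1 (102), ATP6V0D1 (87.3), ATP6V1A (44.7), ATP6V1H (39.6), ATP6V1D (38.3), ATP6V0A1 (36.3) and ATP6V1C1 (34.5). In DMSO it was ATP6AP2 (135), ATP6V1B2 (113), ATP6V0B (107), ATP6V0D1 (64.3), ATP6AP1 (64.0), ATP6V1A (37.0), ATP6V0A1 (29.1), ATP6V1D (26.3), ATP6V1C1 (19.6) and ATP6V1H (17.7). Neighbours overlapped in their 3 libraries from ATP6V1H down to ATP6V1C1 with mebendazole, and at ATP6V0D1 and ATP6AP1 in DMSO. ATP6V1H thus stood seventh with mebendazole, though not apart from its neighbour ATP6V1D, and last in DMSO.

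The pump's other subunit genes form a list of 16, of which 13 passed the filter. Of these, 9 were called higher, 1 lower and 3 not called, beside 40.6% higher and 41.7% lower over all genes tested. The 9 include ATP6V0D2, which passed the filter only through the mebendazole libraries. The list's median log2 fold change was 0.50. With library totals 8 were called higher and 3 lower, beside 30.8% and 53.9% over all genes. ATP6V1F, a small subunit of the central stalk, averaged 192 ± 2.06 CPM with mebendazole and 93.6 ± 4.24 CPM in DMSO (SD, n = 3 each), with a log2 fold change of 1.03 (adjusted p = 3.7e-34, edgeR). ATP6V0C, the main proteolipid of the rotor ring, had 233, 205 and 223 CPM with mebendazole, against 147, 136 and 137 CPM in DMSO (log2 fold change 0.65, adjusted p = 3.8e-25, edgeR). In GENCODE 29 the exons of ATP6V0C overlap genes on the same strand that are named only by clone, so some reads may not be told apart. The peripheral stalk genes ATP6V1E1 and ATP6V1G1 had log2 fold changes of 0.50 and 0.35. So the other abundant stalk and ring genes were higher too, and the exception among the abundant ones was ATP6V0E1, a small membrane subunit. ATP6V0E1 had 166, 152 and 164 CPM with mebendazole, against 160, 162 and 156 CPM in DMSO, with a log2 fold change of 0.02 (adjusted p = 0.67, edgeR) that turned to -0.23 (adjusted p = 5.6e-07) with library totals.

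The scarcer subunit genes included both extremes. ATP6V0E2, the other form of that small membrane subunit, fell to 2.34, 1.53 and 1.5 CPM with mebendazole, against 16.4, 13.8 and 16.2 CPM in DMSO (log2 fold change -3.10, SE 0.17, adjusted p = 1.7e-29, edgeR). Its antisense gene ATP6V0E2-AS1, whose reads cannot be told apart from it without strand, had 26 reads with mebendazole and 89 in DMSO. ATP6V0D2, the form of subunit d known from osteoclasts and macrophages, had 2.90, 2.61 and 3.23 CPM with mebendazole, against 0.460, 0.475 and 0.470 CPM in DMSO (log2 fold change 2.62, SE 0.088, adjusted p = 3.3e-12, edgeR), resting on 116 and 22 reads. With 7, 7 and 8 reads in the DMSO libraries, ATP6V0D2 passed the filter only through the mebendazole libraries, so it could not be called lower. The within-pair log2 ratios behind its SE averaged 2.33, pulled toward 0 by the prior count. That SE therefore does not give the precision of the fitted 2.62. Markers of osteoclasts moved the same way as ATP6V0D2. All 7 tested of the 9 in the table were called higher (6 with library totals), beside 40.6% of all genes tested (30.8% with library totals). Of these, DCSTAMP, ITGB3 and ACP5 had 3, 8 and 16 reads in DMSO, against 228, 138 and 90 with mebendazole. They passed the filter only through the mebendazole libraries, so they could not be called lower. The markers had a summed level of 145 to 156 CPM with mebendazole and 44.3 to 46.2 CPM in DMSO. CALCR had 0 reads, and OCSTAMP had 2 reads with mebendazole and 1 in DMSO. The part of the osteoclast markers in the V-ATPase result was not tested.

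ATP6V1B1, best known from acid-secreting cells of the kidney, averaged 7.70 ± 0.640 CPM with mebendazole and 3.86 ± 0.680 CPM in DMSO (log2 fold change 1.00, adjusted p = 6.3e-09, edgeR). ATP6V1C2 was called higher (log2 fold change 0.26, adjusted p = 0.013, edgeR), but not without pair 2 (adjusted p = 0.0851), without pair 3 (adjusted p = 0.118), without mebendazole replicate 3 in a fit without pairs (adjusted p = 0.0502), by DESeq2 (adjusted p = 0.165) or with library totals (adjusted p = 0.903). Exons of ATP6V1C2 overlap those of PDIA6 on the other strand in GENCODE 29, so their reads cannot be told apart without strand, and PDIA6 averaged 274 ± 8.89 CPM with mebendazole and 435 ± 19.1 CPM in DMSO (SD, n = 3 each). RNASEK, whose exons overlap those of C17orf49 and of a read-through gene of both in GENCODE 29, had 83 reads with mebendazole and 47 in DMSO. It was called higher by edgeR (log2 fold change 1.02, adjusted p = 7.5e-04) and not by DESeq2 (adjusted p = 0.0773). ATP6V0A2, a form of subunit a of the Golgi, and ATP6V1E2 had log2 fold changes of -0.10 and -0.05 and were not called. ATP6V0A2 was called lower with library totals (log2 fold change -0.34, adjusted p = 7.7e-07) and, with TMM, once genes averaging under 10 CPM were dropped (log2 fold change -0.13, adjusted p = 0.035, edgeR). ATP6V1G2 had 26 reads in each group, ATP6V0A4 1 read in all, and ATP6V1G3 0 reads, which by counting error alone allows up to 3.

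Several subunits exist as alternative forms, and the share of each form was taken within a library from reads per kb of exon. For subunit a, TCIRG1, the a3 form of lysosomes and of the osteoclast border, made up 63.6%, 65.4% and 64.0% with mebendazole, against 58.6%, 59.8% and 59.3% in DMSO. ATP6V0A1 made up 31.9%, 30.4% and 32.0% with mebendazole, against 35.0%, 34.4% and 34.4% in DMSO. TCIRG1 itself averaged 224 ± 6.45 CPM with mebendazole and 150 ± 3.48 CPM in DMSO, with a log2 fold change of 0.58 (adjusted p = 9.2e-23, edgeR). TCIRG1 was thus the more abundant a form in both groups, and the 2 groups did not overlap in the share of either form. The share of ATP6V0E2 was 0.616 ± 0.146% with mebendazole and 5.16 ± 0.534% in DMSO, and that of ATP6V1C2, the alternative to ATP6V1C1 that overlaps PDIA6, was 10.7 ± 0.971% with mebendazole and 15.0 ± 0.836% in DMSO. ATP6V0D2 made up 1.34 ± 0.090% of subunit d with mebendazole and 0.298 ± 0.022% in DMSO, so ATP6V0D1 supplied nearly all of it in both groups. ATP6V1B1 made up 2.80 ± 0.246% of subunit B with mebendazole and 1.73 ± 0.264% in DMSO. Of the 9 shares compared, 8 did not overlap between the groups. Over all genes tested, CPM ranges did not overlap for 40.5% with mebendazole above and 41.9% with it below. The shares of the subunit a forms are parts of the same whole, so they are not independent. Each of the 8 had the smallest p that an exact two-sided permutation test of 3 against 3 can give (p = 0.1, adjusted p = 0.113). The permutation test left the labelled pairs out, and its p cannot pass 0.05. The share of ATP6V1G2 did overlap (exact p = 1).

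**Figure D4:**
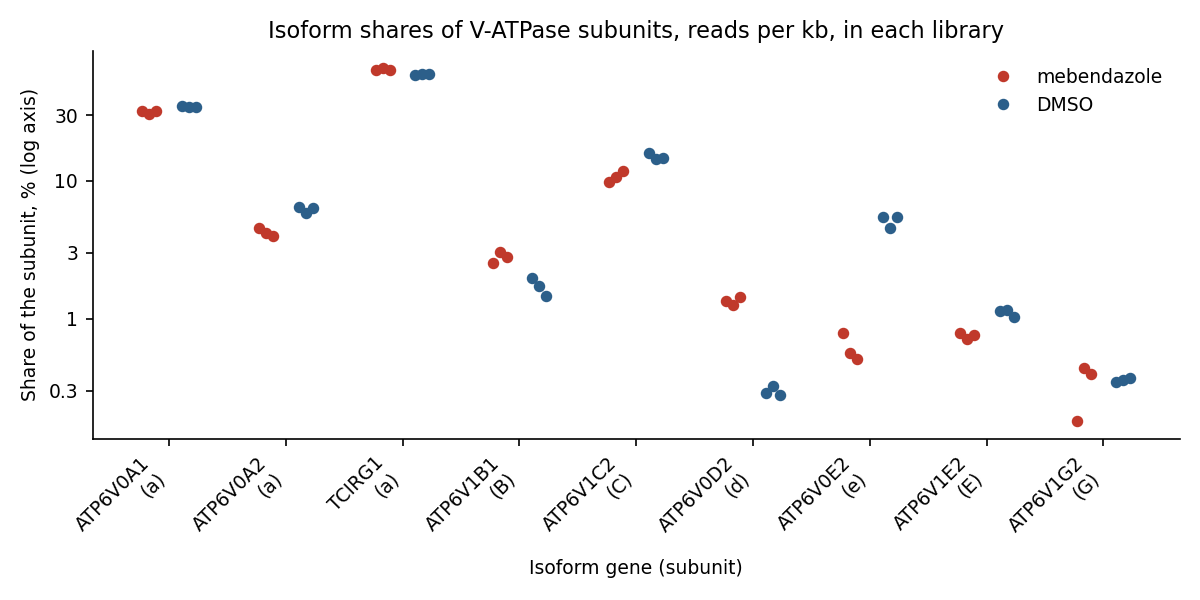
Share of each alternative form in the reads per kb of its subunit (%, log axis) in each library, mebendazole in red and DMSO in blue; for subunits with 2 detected forms only the scarcer is drawn. TCIRG1 lies above and ATP6V0A1 and ATP6V0E2 lie below their DMSO shares.

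The genes that assemble the pump went both ways, as did all genes tested. Over all genes, 40.6% were called higher and 41.7% lower (30.8% and 53.9% with library totals). Of the 7 assembly genes tested, 2 were called higher and 4 lower (1 and 5 with library totals), with a median log2 fold change of -0.17. CCDC115, an assembly factor of the endoplasmic reticulum, averaged 12.1 ± 0.264 CPM with mebendazole and 39.7 ± 1.60 CPM in DMSO (log2 fold change -1.72, adjusted p = 2.2e-31, edgeR). DMXL2 and ROGDI, counterparts of the yeast RAVE complex that loads V1 onto V0, had log2 fold changes of -1.10 (adjusted p = 2.6e-29) and -1.70 (adjusted p = 1.0e-32), while their partner WDR7 was not called (log2 fold change -0.04, adjusted p = 0.66, edgeR) and was called lower with library totals (log2 fold change -0.29, adjusted p = 0.0019). DMXL1 rose (log2 fold change 0.51). VMA21 fell (log2 fold change -0.17), and TMEM199 was called higher with TMM (log2 fold change 0.33) but not with library totals (adjusted p = 0.197).

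TLDc proteins bind V1 and modulate the pump. Beside 40.6% higher and 41.7% lower over all genes tested, 2 of the 4 tested were called higher and 0 lower. With library totals, beside 30.8% and 53.9% over all genes, 1 of the 4 was called higher and 1 lower. NCOA7 had 221, 202 and 198 CPM with mebendazole, against 43.8, 46.2 and 45.3 CPM in DMSO (log2 fold change 2.20, SE 0.070, adjusted p = 7.6e-50, edgeR), the largest change among them. OXR1 was called higher with TMM (log2 fold change 0.19, adjusted p = 0.0014), not without pair 3 (adjusted p = 0.0667), and had a log2 fold change of -0.06 with library totals. TBC1D24 and KIAA1609 were not called, with log2 fold changes of 0.08 and 0.21.

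Of the TFEB relatives and the folliculin proteins that restrain them, 6 of 7 tested were called higher and 0 lower. Their median log2 fold change was 0.66, and with library totals 6 were called higher and 1 lower. Over all genes tested, 40.6% were called higher and 41.7% lower (30.8% and 53.9% with library totals). TFE3 had 144, 147 and 140 CPM with mebendazole, against 59.2, 52.7 and 54.5 CPM in DMSO (log2 fold change 1.37, SE 0.058, adjusted p = 6.1e-38, edgeR). MITF rose to 25.1 ± 1.39 CPM with mebendazole, against 7.99 ± 0.809 CPM in DMSO (log2 fold change 1.65). TFEB itself averaged 51.5 ± 2.11 CPM with mebendazole and 51.9 ± 2.91 CPM in DMSO and was not called (adjusted p = 0.84, edgeR), though with library totals it was called lower (log2 fold change -0.26). TFEC, FLCN, FNIP1 and FNIP2 had log2 fold changes of 0.38, 0.66, 1.19 and 0.48. These are mRNA levels, and TFEB and its relatives are known to be regulated largely by their place in the cell.

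Other lysosomal genes were mixed, as were all genes tested. Over all genes, 40.6% were called higher and 41.7% lower (30.8% and 53.9% with library totals). In the Ragulator and Rag GTPase list, which docks mTORC1 on the lysosome beside the V-ATPase, 2 of 10 were called higher and 5 lower (1 and 7 with library totals), from LAMTOR4 (log2 fold change -0.76) and RRAGB (-0.75) to RRAGA (0.38) and RRAGC (0.24, and -0.000965 with library totals). Of 14 genes for lysosomal and endosomal ion transport, 8 were called higher and 5 lower, but 4 and 7 with library totals. The chloride-proton exchanger CLCN4 (-1.88) and the channel TPCN1 (-0.79) stood lowest, and the channels MCOLN3 (1.02) and MCOLN1 (1.00) highest. Of 10 genes for lysosomal membrane proteins, 7 were called higher and 2 lower, but 4 and 5 with library totals, with TMEM192 (-1.39) and ABCA2 (-0.76) lowest and the cholesterol transporter NPC1 (2.21) and the sialic acid exporter SLC17A5 (0.75) highest. The mitochondrial F-type ATP synthase, a rotary machine related to the V-ATPase that makes ATP in place of spending it, went the other way. Of its 17 genes, 0 were called higher and 16 lower (17 with library totals), with a median log2 fold change of -0.58, from ATP5S (-1.69) and ATP5G1 (-1.33) to ATP5E (-0.14) and ATP5L (-0.06). ATP5L was the gene not called (called lower once genes averaging under 10 CPM were dropped, adjusted p = 0.024), and ATP5E lost its call without pair 2 (adjusted p = 0.371) or pair 3 (adjusted p = 0.148), by DESeq2 (adjusted p = 0.156), and, in fits without pairs, without mebendazole replicate 2 (adjusted p = 0.46) or 3 (adjusted p = 0.0913) or DMSO replicate 3 (adjusted p = 0.0882). No test of the difference between these lists was made.

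**Figure D5:**
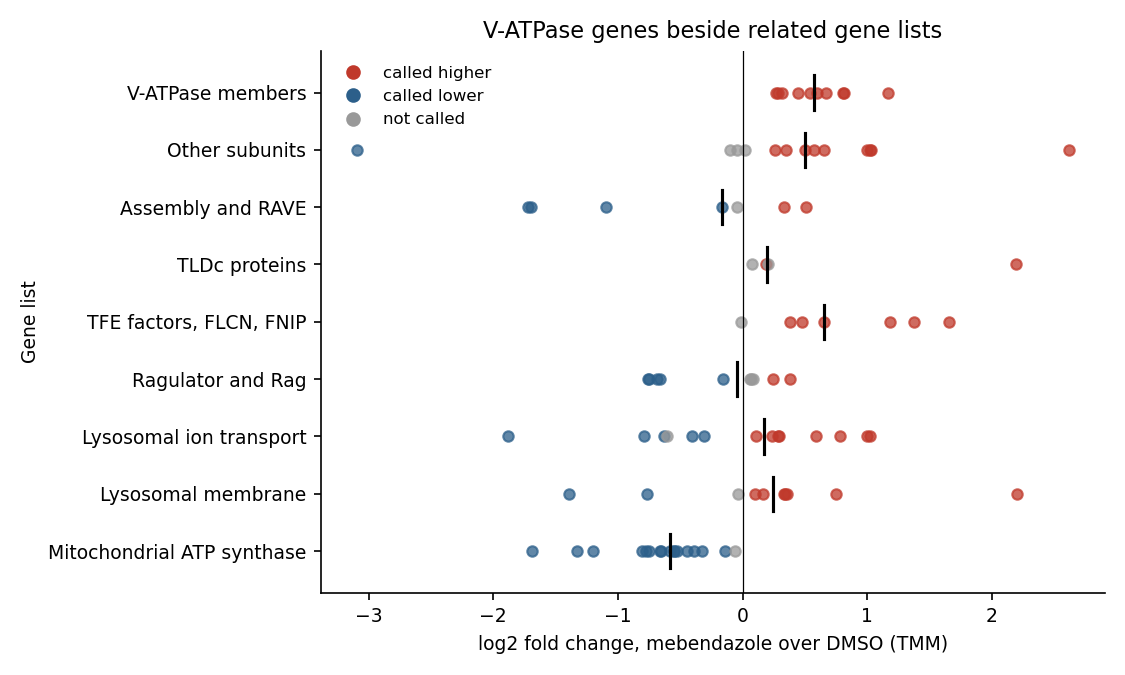
Log2 fold change (mebendazole over DMSO, TMM) of each tested gene in 9 lists, red where called higher, blue where called lower and grey where not called, with a black bar at each list's median. The 10 members lie wholly to the right of 0 and the mitochondrial ATP synthase genes wholly to the left, while the assembly, Ragulator, ion transport and membrane lists fall on both sides.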

How the data were processed

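The authors deposited raw read counts, unnormalised, in 1 column for each library and 1 row for each gene symbol. The submitters' processing notes name STAR, bedtools, HTSeq, DESeq2 and the build hg19 but neither versions nor their use; the annotation and the strand setting were not stated. Libraries were made with Illumina's TruSeq RNA v2 protocol, per the labels, which leaves strand unmarked. The analysis used R 4.3.3 and edgeR 4.0.16 (filterByExpr on the group, TMM, glmQLFit and glmQLFTest, two-sided) over 13591 genes. Each gene had 2 residual degrees of freedom of its own beside 61 borrowed from other genes, so very small p-values rest mostly on pooled spread. The pair was a term because the labels state pairs. The 1.5-fold test used glmTreat, and DESeq2 1.42.0 was an alternative. Members and lists were chosen with earlier results of these data known. All members, other subunits and assembly, TLDc and TFE genes are named, and of each other list the 2 highest and 2 lowest. Isoform shares were tested by exact permutation without the pairs (scipy 1.17.1). No replicates agreed within sampling noise. The code was tested on simulated data.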

Additional observations from a re-analysis of the deposited data

How the results depend on the processing

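The count of members called higher (10) and lower (0) held in every alternative except library totals (7 higher) and the test against a 1.5-fold change (4 higher, with 5 other subunits higher and 5774 genes changed in place of 11192), which asks for a larger effect. With library totals the members' median log2 fold change was 0.33 in place of 0.57, 3 other subunits were lower in place of 1, and 36.4% of called genes were higher in place of 49.3%; that scaling moves the median gene. It also turned the sign of ATP6V0E1 (-0.23), OXR1 (-0.0583), TBC1D24 (-0.165), KIAA1609 (-0.0361) and RRAGC (-0.000965). Among genes that were not called, the sign also turned for ATP6V0E1 once genes averaging under 10 CPM were dropped (-0.0161) and for TFEB with RLE size factors (0.00971) and by DESeq2 (0.00253). Without 1 pair, log2 fold changes ran from -0.0937 to 0.0405 for ATP6V1E2, -0.014 to 0.0854 for ATP6V0E1, -0.093 to 0.0835 for WDR7 and -0.0271 to 0.0154 for TFEB. In fits without pairs, signs turned without mebendazole replicate 2 for ATP6V1E2 (0.0365) and TFEB (0.0399), without DMSO replicate 1 for TFEB (0.019) and WDR7 (0.038), without mebendazole replicate 1 for WDR7 (0.00105) and without DMSO replicate 3 for ATP6V0E1 (-0.00161). Without 1 pair, 10 members were higher each time, with a median of 0.55 to 0.62. The share difference of ATP6V1G2, on few reads, was -0.0211 percentage points, with 0.0523 without pair 1 and a range of -0.0716 to 0.0523. Of 57 named genes, 27 kept both sign and call under all alternatives in which they were tested. KIAA1609 gained a call with RLE size factors (adjusted p = 0.037) and without pair 3 (0.0204), and in fits without pairs without mebendazole replicate 3 (0.0285) or DMSO replicate 3 (0.0357), and the cause was not tested. The fit with no replicate block found 11118 changed genes and 10 members higher. Within pairs 1 to 3, the deviations from the group means had correlations of -0.000997, 0.0614 and 0.0155, and some libraries matched another number better than their own. Low read counts limit ATP6V0D2, ATP6V1E2, ATP6V1G2, ATP6V0A4, ATP6V1G3 and RNASEK, and ATP6V0E2 with mebendazole. Exons of RNASEK, ATP6V0C, ATP6V1G2 and ATP6V0A1 overlap other genes on the same strand (for ATP6V0A1 the gene MIR5010), which more reads would not resolve.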
